A study of Mus musculus with 39 samples.

Results

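The expression of 8 transcription factors that mark or pattern upper layer projection neurons, Cux1, Cux2, Pou3f1, Pou3f2, Pou3f3, Rorb, Mef2c and Bhlhe22, was followed in neocortical cells of the mouse at 2 stages, embryonic day 13 (E13) and E16. They were found by symbol, and are 8 of the 53379 genes in the count tables. The embryos carried the MADM-7-GT and MADM-7-TG cassettes on chromosome 7 together with Emx1-Cre, on a mixed C57BL/6J, CD1 background. Emx1 drives Cre in the dorsal telencephalon, so that labelled cells come mainly from cortical radial glia and their progeny. In Mosaic Analysis with Double Markers (MADM), recombination between homologues leaves sparse coloured cells. Red (tdT+) and green (GFP+) cells carry uniparental disomy (UPD) of chromosome 7 in opposite parental directions, and yellow (GFP+/tdT+) cells carry 1 chromosome from each parent and are the control. Each library was made from a pool of 200 to 400 sorted cells of 1 colour from the neocortex of 1 embryo. The parental direction is not in the sample labels. Following the study's list of samples, red was taken as paternal disomy (patUPD) in replicates 1 to 3 and green as patUPD from replicate 4 on.

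That assignment was compared with imprinted genes of chromosome 7, which were not used to make it. Cdkn1c, expressed from the maternal copy, was higher in the cells with maternal disomy (matUPD) in 5 of 5 embryos at E13 and 7 of 7 at E16. Ndn and Snrpn, expressed from the paternal copy, were higher in patUPD cells in 5 of 5 and 7 of 7 embryos, and Peg3 in 5 of 5 and 6 of 7. None of the 8 regulators lies on chromosome 7.

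The neocortex is built from the inside out: neurons of the deep layers are born first, and neurons of the upper layers, most of which send axons to other cortical areas, are born later and migrate past them. Cux1 and Cux2 are homologues of the Drosophila gene cut and mark layers II to IV and part of the progenitors. Pou3f1 (Oct6), Pou3f2 (Brn2) and Pou3f3 (Brn1) belong to the class III POU homeodomain family, and Pou3f2 and Pou3f3 act together in the production and migration of upper layer neurons. Rorb, an orphan nuclear receptor, marks layer IV. Mef2c, a MADS-box factor, acts in neuronal differentiation and synapse number. Bhlhe22 (Bhlhb5), a basic helix-loop-helix repressor, contributes to the area identity of postmitotic neurons.

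In the GRCm38 build, Cux1 lies at chr5:136248135-136567490 and Cux2 at chr5:121856366-122050102, both on the minus strand. Pou3f1 (chr4:124656807-124660655, plus strand), Pou3f2 (chr4:22482780-22488366, minus strand), Pou3f3 (chr1:42695768-42703176, plus strand) and Bhlhe22 (chr3:18054174-18057517, plus strand) each have 1 exon. Rorb lies at chr19:18930605-19111196 on the minus strand and Mef2c at chr13:83504034-83667080 on the plus strand, and their longest annotated transcripts have 11 and 12 exons. Counts were unstranded. Of the 50-base stretches of Pou3f1 transcripts, 7.42% were also found in a transcript of another gene, the antisense Gm2164, and of those of Cux1 2.70%. For the other 6 genes the share was at most 0.56%, and no such stretch was shared between any of the 8, so the 3 POU genes do not exchange reads by sequence of that length.

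The 250 bases before the transcription start are shown for the 3 regulators that rose between the ages in the embryo sums described below, Pou3f2, Pou3f3 and Mef2c, and for Cux1, which did not. The sequences are from RefSeq on GRCm38.p6, 5′ to 3′ on the strand of the gene. An entry was found for 6 of the 8 genes, with 10 start sites. Capitals mark matches, on either strand, to the octamer bound by POU factors (ATGCAAAT) and to the CCAAT box. They also mark AGGTCA, which is the core of the site to which Rorb and related receptors bind. The Cut homeodomain core searched for was ATCGAT, the type of site bound by Cux1 and Cux2. Of the E-boxes, the sites of basic helix-loop-helix factors, the first searched for was CATATG, a form bound by Bhlhe22 and its relatives. The other E-box was CAGCTG, which many factors of the same large class bind. The TATA box, found near the start of some genes, was searched for as TATAAA. None of these motifs contains another.
Pou3f2 (chr4:22488367-22488616, minus strand): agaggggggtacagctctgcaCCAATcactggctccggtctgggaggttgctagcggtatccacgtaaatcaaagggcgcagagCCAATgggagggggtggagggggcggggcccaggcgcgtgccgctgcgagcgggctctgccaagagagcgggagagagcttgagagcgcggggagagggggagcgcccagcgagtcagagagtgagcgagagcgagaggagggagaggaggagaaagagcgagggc
Pou3f3 (chr1:42695518-42695767, plus strand): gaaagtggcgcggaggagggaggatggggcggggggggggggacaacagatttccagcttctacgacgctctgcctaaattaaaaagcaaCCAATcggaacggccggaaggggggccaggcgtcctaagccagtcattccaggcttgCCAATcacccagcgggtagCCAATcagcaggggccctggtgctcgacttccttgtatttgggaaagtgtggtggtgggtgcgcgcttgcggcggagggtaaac
Mef2c, first start site (chr13:83503784-83504033, plus strand): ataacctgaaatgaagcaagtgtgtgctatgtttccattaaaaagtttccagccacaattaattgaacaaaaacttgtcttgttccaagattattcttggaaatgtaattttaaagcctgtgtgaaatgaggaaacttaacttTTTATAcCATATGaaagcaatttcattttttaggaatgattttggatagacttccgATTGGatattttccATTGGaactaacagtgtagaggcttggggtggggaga
Cux1 (chr5:136565982-136566231, minus strand): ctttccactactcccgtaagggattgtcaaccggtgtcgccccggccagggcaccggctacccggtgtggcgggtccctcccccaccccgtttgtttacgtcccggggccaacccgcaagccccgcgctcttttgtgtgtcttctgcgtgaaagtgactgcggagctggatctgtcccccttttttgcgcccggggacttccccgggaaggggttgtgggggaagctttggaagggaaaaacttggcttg

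The Pou3f2 window held 2 matches to CCAAT and the Pou3f3 window 3. CCAAT was present in 33.8% of the 32851 RefSeq windows of this length. The Mef2c window held 2 matches to CCAAT, 1 to the first E-box (in 3.46% of all windows) and 1 to the TATA box (12.4%), and no letters matched in the Cux1 window. The octamer (1.6% of all windows), the ROR core (14%), the Cut core (0.728%) and the other E-box (13%) were in none of these 4 windows. The share of G and C was 66.8% for Pou3f2, 60.8% for Pou3f3 and 62.8% for Cux1, against 33.6% for the Mef2c window and a median of 52.4% over all windows. Start sites 2 and 3 of Mef2c, which are not printed, differed from the first. They held 1 and 2 matches to the ROR core and none to CATATG, with 44.8% and 49.6% G and C. A match is a description of the letters and not a binding site.

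Of 39 libraries, the 36 with at least 40% uniquely aligned reads were used, 5 of each colour at E13 and 7 of each colour at E16. Their gene counts ran from 472924 to 5205788, and 7858 to 13768 genes were detected. Levels are given as CPM, the count of a gene relative to the TMM-scaled gene total of its library, and 3 counts corresponded to 0.528 to 5.56 CPM depending on the library. Some libraries stood apart: E16 yellow 7, E16 red 5, E16 red 6, E13 yellow 2 and E13 green 4 had 7858 to 9655 genes detected or an unusual share of reads outside genes or on overlapping genes. In addition, 5 libraries held at least 50 counts of both Xist and Y-linked genes (E13 yellow 2, E13 red 6, E16 yellow 5, E16 red 6 and E16 green 7). Results of the single colours and of the comparisons within embryos that change without them are given with the alternatives. The embryo sums were not refitted without these libraries, but were refitted without each embryo in turn. Of the 8 regulators, Cux1, Pou3f2, Pou3f3 and Bhlhe22 were counted in all 36 libraries, whereas Rorb had 0 counts in 8 of them, Pou3f1 in 3, and Cux2 and Mef2c in 2 each.

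The order of the 8 regulators changed between the ages. Levels per exon length (RPKM, the CPM divided by the kilobases of annotated exon) were computed on the summed colours of each embryo, with 4 embryos at E13 and 7 at E16. Only embryos with all 3 colours kept entered the sums, so that E13 embryos 3 and 5 were left out. At E13 Bhlhe22 had the highest median level, 19.6 RPKM, followed by Pou3f3 with 11.01, Cux1 with 7.15, Pou3f2 with 6.69 and Mef2c with 6.08 RPKM. Pou3f1 and Cux2 had median levels of 1.69 and 1.64 RPKM and Rorb 0.135 RPKM. Bhlhe22 was above Pou3f3 in 4 of 4 embryos and Cux2 above Rorb in 4 of 4, whereas Pou3f2 exceeded Mef2c in only 2 of 4. At E16 Pou3f2 led with 51.5 RPKM, then Bhlhe22 with 34.5, Pou3f3 with 24.1 and Mef2c with 23.2 RPKM. Pou3f1 followed with 7.36 RPKM, Cux1 with 5.59, Cux2 with 4.56 and Rorb with 1.39. Pou3f2 exceeded Bhlhe22 in 6 of 7 embryos, while Pou3f3 exceeded Mef2c in 3 of 7 and Pou3f1 exceeded Cux1 in 4 of 7. These neighbours did not separate beyond the spread between embryos. Of the levels of the 8 genes in RPKM, summed over the embryos of an age, Pou3f2 made up 12.2% at E13 and 35.0% at E16, and Bhlhe22 34.5% and 22.6%. The order within an age and these shares depend on the length used. All annotated exons came to 15715 bases for Mef2c and 20024 for Cux1, against 6277 and 12862 in their longest transcripts. For Pou3f2, with 1 exon, both lengths were 5587 bases. With the longest transcript as the length, Mef2c and Cux1 would stand higher relative to Pou3f2. At E16 the median of Mef2c (365 CPM over 6277 bases) would then lie above that of Pou3f2 (288 CPM over 5587 bases). The first place of Pou3f2 at E16 therefore holds only for the length of all annotated exons.

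**Figure D1:**
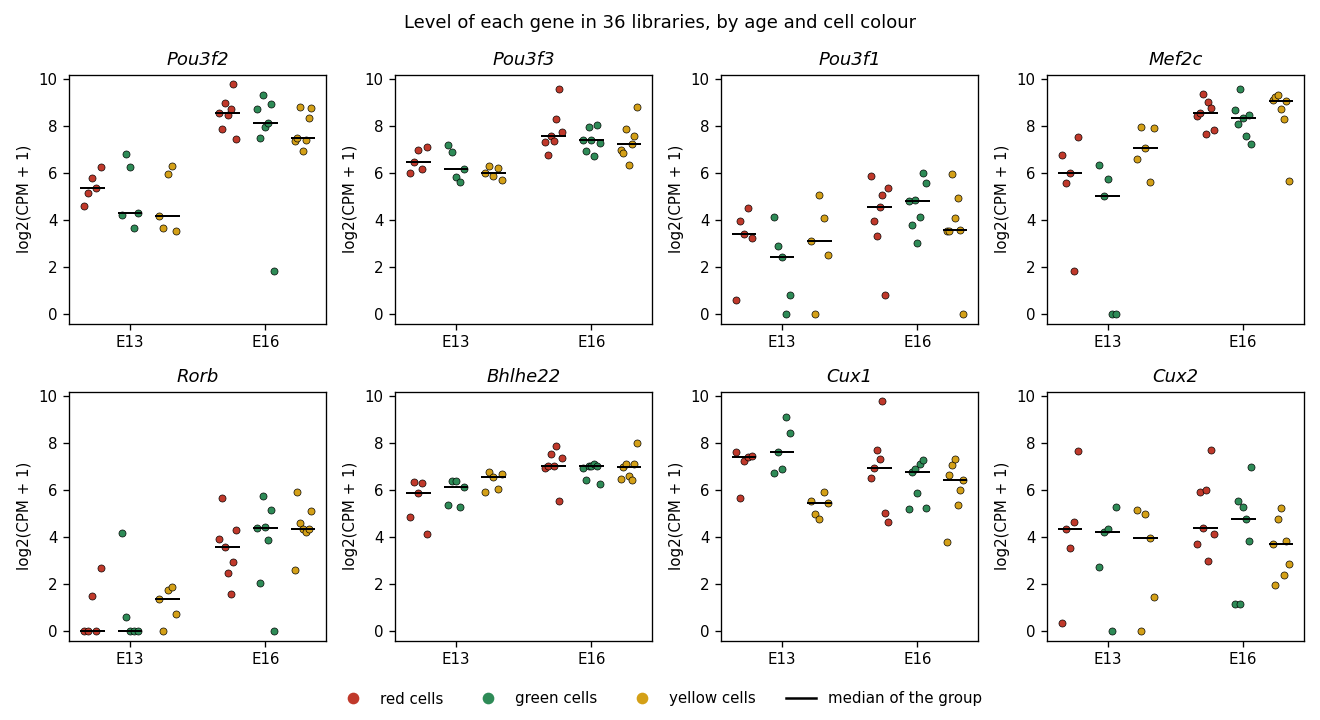
Level of each regulator in every library kept as log2(CPM + 1), by age and colour; each point is 1 library and the lines mark group medians. Pou3f2 lies between 10.7 and 113 CPM at E13 and between 125 and 886 CPM at E16, except 1 E16 green library at 2.58 CPM, while the Cux1 points of the 2 ages overlap.

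The first question was how the regulators differ between E13 and E16. In the embryo sums, in which the red, green and yellow counts of an embryo were added, Pou3f2, Mef2c and Pou3f3 rose, and no regulator fell. Of all 13998 genes tested, 2.64% passed the threshold of an adjusted p under 0.05 (edgeR quasi-likelihood test, Benjamini-Hochberg) and 1.32% passed it as higher at E16, against 3 of the 8 regulators. The log2 fold change was above 0 for 7 of the 8, with a median of 1.44 over the 8 and 0.04 over all genes. An unadjusted p under 0.05 was found for 6 of the 8, against 18.6% of all genes. In these bulk pools, more cells of a type and more RNA per cell cannot be told apart. Raw counts were added, so that the deeper libraries of an embryo weigh more and the mix of colours differs between embryos. In E16 embryo 7 the gene counts were 472924 in red, 4346711 in green and 2551809 in yellow cells.

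Pou3f2 had the largest fitted difference of the 3 regulators that rose in the sums. Its level in the 4 E13 embryos was 18.8, 58.2, 40.3 and 34.5 CPM, and in the 7 E16 embryos it ran from 197 to 567.5 CPM with a median of 288. The lowest E16 embryo was above the highest E13 embryo. The fitted difference was 3.14 on the log2 scale (SE 0.41, adjusted p = 0.00138, edgeR), which is 8.84-fold with a 95% interval of 4.80 to 16.3. By colour, Pou3f2 had 23.2, 35.3, 54.6, 41.0 and 76.9 CPM in the E13 red libraries and 174 to 886 CPM (median 384) at E16, with no overlap. In the main fits this was the only regulator that passed the threshold within a colour (log2 fold change 3.19, SE 0.48, adjusted p = 0.0144, edgeR), against 0.322% of the 11174 genes in red cells in either direction and 0.17% as higher. The call was lost with the low-quality libraries included (1.92, adjusted p = 0.241) and without E13 red 2 (3.09, adjusted p = 0.0570, edgeR). In replicates 4 and up 0 of 10534 genes were called, so that Pou3f2 lost the call there too. In yellow cells it had 17.4, 11.7, 61.2, 78.2 and 10.7 CPM at E13 and 125 to 456 CPM (median 182) at E16. Those groups also did not overlap, but the difference of 2.90 (SE 0.62) had an adjusted p of 0.104 (edgeR), with 0.149% of all genes called. With the libraries the study kept, the yellow difference was 2.54 and passed the threshold (adjusted p = 0.0427, edgeR), with 146 of 11204 genes called. In green cells Pou3f2 had 17.9, 113, 76.1, 11.9 and 18.7 CPM at E13 and a median of 285 CPM at E16. The E16 green libraries ran from 182 to 642 CPM except replicate 7 at 2.58, and the groups overlapped through that library. The green difference was 2.81 (SE 0.88, adjusted p = 0.128, edgeR), with 1.39% of all genes called, and it became 3.03 (adjusted p = 0.0232) without that library.

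Pou3f3, the close relative of Pou3f2, rose by less. The 4 E13 embryos had 78.7, 94.7, 57.4 and 84.5 CPM, and the 7 E16 embryos 117 to 401 CPM with a median of 179. These groups did not overlap. The difference was 1.44 on the log2 scale (SE 0.35, adjusted p = 0.0440, edgeR), or 2.72-fold with a 95% interval of 1.61 to 4.58. This call lies close to the threshold: in 9 of 11 fits that each left out 1 embryo it was lost, with differences from 1.19 to 1.55 and adjusted p up to 0.134 (edgeR). Within the colours, the differences were 1.48 in red, 1.04 in green and 1.57 in yellow cells, none past the threshold (adjusted p = 0.248, 0.191 and 0.251, edgeR). The yellow libraries ran from 51.3 to 79.2 CPM at E13 and from 80.1 to 447 CPM at E16, the only colour in which the ages of Pou3f3 did not overlap. E16 yellow 7, the library with the fewest genes, held the highest of these values.

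For Pou3f1, the third POU gene, the values were low and the call was not made. Its E13 embryos had 6.50, 6.48, 20.2 and 4.67 CPM and its E16 embryos 13.4 to 32.6 CPM (median 28.3), so that 1 E13 embryo lay within the E16 range. The difference was 1.43 (SE 0.56, adjusted p = 0.184, edgeR) in the sums, and 1.21, 2.38 and 0.73 in red, green and yellow cells. The 3 POU genes had positive differences in every colour and in the sums, with Pou3f2 above the other 2 in each. The yellow value of Pou3f1 turned to -0.29 in replicates 4 and up.

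Mef2c also rose in the sums. The E13 embryos had 92.5, 98.5, 53.6 and 144 CPM and the E16 embryos 132 to 695 CPM with a median of 365, with a small overlap between the highest E13 and the lowest E16 embryo. The difference was 2.01 (SE 0.39, adjusted p = 0.0146, edgeR), 4.02-fold with a 95% interval of 2.25 to 7.20. It lost the call without E13 embryo 4 (1.81, adjusted p = 0.0568). In red cells Mef2c had 109, 46.8, 64.4, 2.58 and 188 CPM at E13 and 207 to 672 CPM (median 383) at E16. In green cells it had 80.9, 31.7 and 53.2 CPM in 3 libraries at E13 and 0 counts in the other 2, against 151 to 779 CPM (median 327) at E16. The ages did not overlap in either colour. In yellow cells, with 96.6, 251, 134, 49.3 and 245 CPM at E13 and 50.5 to 640 CPM (median 548) at E16, they did. That overlap came through E16 yellow 7, the library with the fewest genes, and the next lowest E16 library held 314 CPM. The differences were 2.30 in red, 3.45 in green and 1.59 in yellow cells (adjusted p = 0.220, 0.120 and 0.326, edgeR), none past the threshold. With the libraries the study kept, the yellow difference was 2.01 and passed it (adjusted p = 0.0167, edgeR), with 146 of 11204 genes called.

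Rorb was near the detection limit at E13. Its E13 embryos had 4.30, 0.214, 0.946 and 2.04 CPM and its E16 embryos 11.4 to 31.0 CPM with a median of 15.4, without overlap. The fitted difference of 3.33 (SE 0.85, adjusted p = 0.0531, edgeR) did not pass the threshold, and with DESeq2 it did (3.32, adjusted p = 0.00021). It had 0 counts in 3 of the 5 red and 3 of the 5 green libraries at E13, and the highest E13 library, green 1, held 16.9 CPM. In yellow cells the libraries ran from 0 to 2.69 CPM at E13 and from 5.02 to 59.7 CPM at E16, again without overlap (difference 4.11, adjusted p = 0.255, edgeR). The red and green differences were 3.38 and 2.61.

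Bhlhe22 had the smallest SE of the 8 in the sums. The E13 embryos had 39.8, 86.3, 71.1 and 60.2 CPM and the E16 embryos 105 to 165 CPM (median 115), without overlap. The difference of 1.01 (SE 0.28), which is 2.02-fold, had an adjusted p of 0.0699 (edgeR) and was not called. It was called with DESeq2 (adjusted p = 0.00781) and with all embryos (1.02, adjusted p = 0.0228, edgeR). The fit with all embryos added E13 embryos 3 and 5 with only the colours kept, so that its mix of colours differs. The differences by colour were 1.47 in red, 0.92 in green and 0.64 in yellow cells.

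Cux1 and Cux2, the best known upper layer markers of the set, did not pass the threshold for age in the sums or in any colour by edgeR. Cux1 had 102 to 189 CPM in the E13 embryos and 42.9 to 311 CPM (median 112) in the E16 embryos, and its difference was -0.14 (95% interval -1.08 to 0.81, adjusted p = 0.915, edgeR). Its values by colour were 0.51 in red, -1.43 in green and 1.07 in yellow cells, and the red value turned to -0.26 with the libraries the study kept. The green value had an unadjusted p of 0.0101 and an adjusted p of 0.156 (edgeR), and with DESeq2 it was called as lower at E16 (-1.51, adjusted p = 0.0450). Cux2 had 12.2 to 78.1 CPM at E13 and 9.27 to 81.7 CPM (median 45.9) at E16, with a difference of 0.42 (95% interval -1.07 to 1.92, adjusted p = 0.818, edgeR). By colour it was 0.12 in red, 1.14 in green and -0.14 in yellow cells. Both intervals include changes of up to 1 log2 unit or more in at least 1 direction, so that equal levels were not shown.

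**Figure D2:**
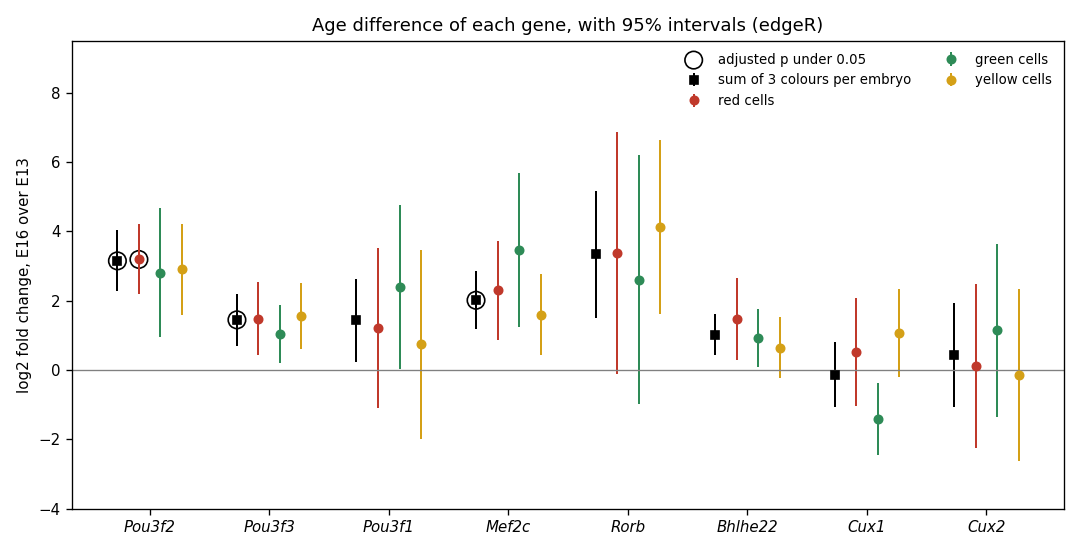
Log2 fold change of E16 over E13 for each regulator in red, green and yellow cells and in the embryo sums; points are edgeR estimates, bars 95% intervals, and circled points passed an adjusted p under 0.05. Pou3f2 is called in red cells and in the sums, Mef2c and Pou3f3 in the sums, and the Cux1 and Cux2 intervals cross 0 in the sums.

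By colour, the ages did not overlap for 2 of the 8 regulators in red cells (Pou3f2 and Mef2c), 1 in green cells (Mef2c) and 3 in yellow cells (Pou3f2, Pou3f3 and Rorb), each with E16 above E13. Among all genes tested this held for 0.931%, 1.78% and 0.694%. In the sums it held for 4 regulators (Pou3f2, Pou3f3, Rorb and Bhlhe22), against 2.54% of all genes. The sums hold the same reads as the colours and are not independent of them.

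Other genes of the upper layers and markers of cell types were counted in the same sums. Of 20 genes of upper layer and callosal neurons, all tested, 4 rose and none fell, with a median difference of 0.79 over the list and 0.04 over all genes. Limch1 was among them and rose by 2.02 (adjusted p = 0.00611, edgeR). Of 10 deep layer genes 1 rose, Ldb2 (2.68), and the list had a median of -0.26.

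The cell type markers moved with age as well. Of 8 markers of projection neurons 4 rose, among them Snap25 (1.63) and Neurod6 (1.34), and their summed level went from 4289 to 5210 CPM in the E13 embryos to 6644 to 9248 CPM in the E16 embryos. Of 8 markers of radial glia 5 fell, among them Vim (-1.66) and Nes (-4.30), though their summed level overlapped (1578 to 2142 CPM at E13, 831 to 2785 CPM at E16). Of 6 markers of intermediate progenitors 1 fell, Gadd45g (-2.13), with sums of 918 to 1431 CPM at E13 and 296 to 803 CPM at E16. The part of these shifts in the rise of Pou3f2, Pou3f3 and Mef2c was not tested. In yellow cells the projection neuron sums were 5806 to 7038 CPM at E13 (median 6156) and 5478 to 9402 CPM at E16 (median 8518). Of the markers of interneurons, Cajal-Retzius cells, microglia and red blood cells none passed the threshold in the sums, of the oligodendrocyte lineage 1 of 2 tested (Pdgfra) fell, and no endothelial marker passed the count filter. The summed interneuron markers were at 15.1 to 53.5 CPM in the E13 embryos and at most 13.3 CPM in the E16 embryos. Red blood cell markers reached 18926 CPM in 1 singly coloured library at E13. They were not confined to it: their sums were 0.875 to 10099 CPM (median 4284) in the E13 embryos. In the E16 embryos they were 4.35 to 2242 CPM (median 4.77).

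**Figure D3:**
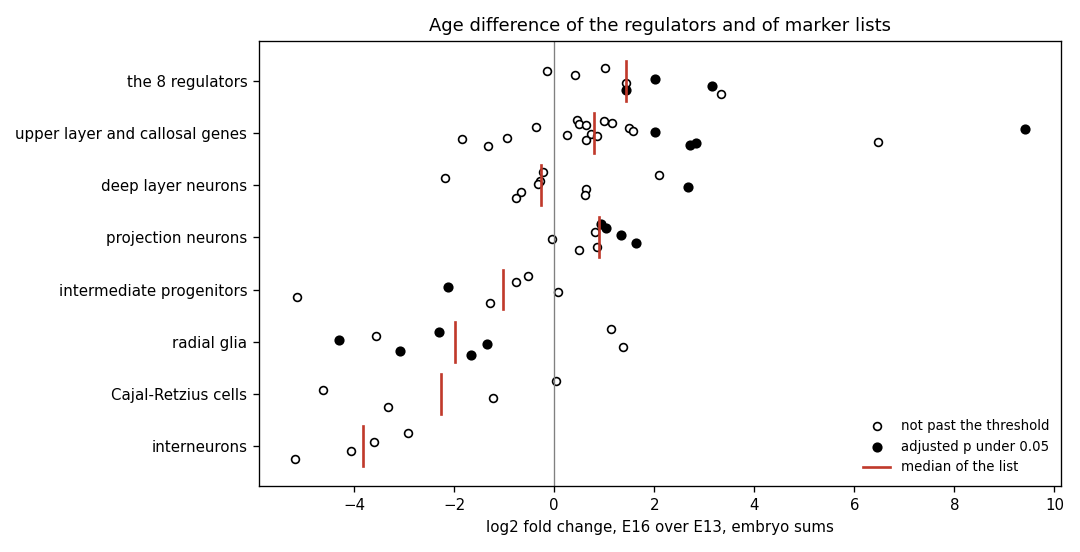
Log2 fold change of E16 over E13 in the embryo sums for every tested gene of each list; each point is 1 gene, filled where the adjusted p was under 0.05, and the red line is the median of the list. The 8 regulators have a median of 1.44, the 20 upper layer genes 0.79, projection neuron markers 0.90 and radial glia markers -1.98.

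The second comparison set the singly coloured cells, which carry UPD, against yellow cells of the same embryo. No regulator passed the threshold at either age. At E13, 7 of the 8 could be tested (Rorb was under the count filter), and 0% of the 11786 genes were called, with 801 at an unadjusted p under 0.05 by edgeR and 562 called by DESeq2. At E16, 0% of 10794 genes were called, with 258 at an unadjusted p under 0.05 and 73 called by DESeq2.

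Cux1 had the smallest p of the 7 regulators against yellow cells at E13, and Mef2c the largest fitted difference. The Cux1 level was 194, 50.6, 152, 170 and 176 CPM in red cells and 105, 197, 119, 553 and 341 CPM in green cells, against 46.0, 30.7, 26.2, 60.4 and 43.2 CPM in yellow cells. Only the lowest red library fell within the yellow range. Within embryos, the mean of the singly coloured libraries was above yellow in 4 of 4, by 1.62 to 3.52 on the log2 scale (median 2.09). The fitted difference was 2.42 (SE 0.56, unadjusted p = 0.000921), and the adjusted p of 0.286 (edgeR) did not pass. With DESeq2 the adjusted p was 0.000282. E13 green 4, which stood apart, held the highest Cux1 value, and without embryo 4 the difference was 2.06 (adjusted p = 0.808, edgeR). With all 39 libraries it was 0.83 (adjusted p = 0.994, edgeR). At E16 Cux1 had 24.1 to 881 CPM in red, 36.2 to 157 CPM in green and 12.9 to 160 CPM in yellow cells, with a difference of 0.38 (95% interval -0.82 to 1.59, adjusted p = 1, edgeR). The change of the difference between the ages was -2.03 (unadjusted p = 0.0279, adjusted p = 1, edgeR), with 0.00872% of 11472 genes called in that test.

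Mef2c lay the other way at E13. The singly coloured mean was below yellow in 4 of 4 embryos, with log2 differences of -6.58 to -0.042, and the fitted difference was -3.05 (95% interval -6.17 to 0.07, adjusted p = 0.722, edgeR). The lowest value came from embryo 4, with 2.58 CPM in red and 0 counts in green cells against 134 CPM in yellow, and without it the difference was -1.58 (adjusted p = 0.944, edgeR). It was -6.23 (adjusted p = 0.490) without the libraries with both sex signals and -1.47 (adjusted p = 0.719, edgeR) without the embryo block. At E16 the difference was -0.18 (95% interval -0.82 to 0.46, adjusted p = 1), and the change between the ages was 2.82 (unadjusted p = 0.0277, adjusted p = 1, edgeR). Bhlhe22 was also below yellow in 4 of 4 E13 embryos (difference -0.82, adjusted p = 0.822), and Pou3f3 above it in 4 of 4 (0.47, adjusted p = 0.924, edgeR).

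The markers differed between these libraries too. At E13 the radial glia sums were 1867 to 3259 CPM in singly coloured and 741 to 1661 CPM in yellow libraries, without overlap. The projection neuron sums were 3032 to 5271 CPM and 5806 to 7038 CPM, also without overlap, in the other direction. Cajal-Retzius markers were at 17.7 to 587 CPM in singly coloured and 190.4 to 525 CPM in yellow libraries, and microglia markers at most 0.9 and 52.1 CPM. P2ry12, a defining gene of microglia, had 0 counts in all 36 libraries. No gene of these lists passed the threshold. The part of the cell types in the Cux1 and Mef2c values was not tested.

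**Figure D4:**
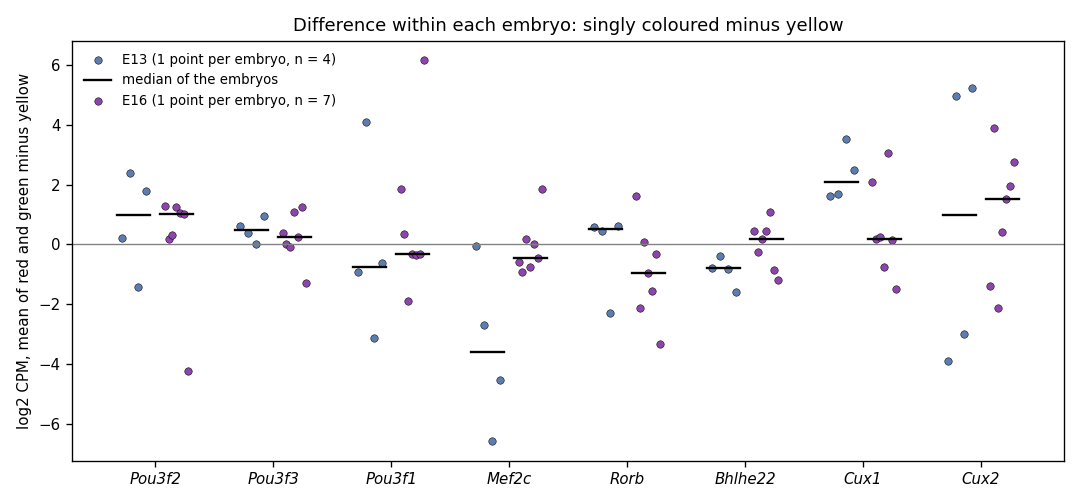
Within-embryo log2 difference of the singly coloured mean over yellow for each regulator, at E13 (4 embryos) and E16 (7 embryos); each point is 1 embryo, black lines mark medians and the grey line marks 0. The 4 Cux1 points at E13 lie between 1.62 and 3.52, the Mef2c points at E13 at or below -0.042, and the points at E16 lie on both sides of 0 for every regulator.

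The third comparison set patUPD against matUPD cells of the same embryo. No regulator passed the threshold: the 7 tested at E13 (Rorb was under the count filter) and the 8 tested at E16 had an adjusted p of 1 (edgeR). At E13 0% of 11786 genes were called, with 264 at an unadjusted p under 0.05 by edgeR and 202 called by DESeq2, and at E16 0.0278% of 10794. Pou3f2 was lower in patUPD cells in 4 of 5 embryos at E13 and 6 of 7 at E16, with differences of -1.18 (95% interval -2.95 to 0.59) and -0.47 (-1.68 to 0.74). Pou3f3 was lower in the same numbers of embryos, 4 of 5 and 6 of 7, with differences of -0.46 (-1.57 to 0.65) and -0.59 (-1.38 to 0.19). Neither differed from 0 beyond the spread between embryos. In the test of whether the patUPD and matUPD difference changed with age, 0% of genes were called, with 291 at an unadjusted p under 0.05 by edgeR. Rorb had the smallest p of the 8 in it (5.51, unadjusted p = 0.0389, adjusted p = 1), on levels that were at 0 in 6 of the 10 singly coloured libraries at E13. The fit was the one used for the comparison with yellow cells, whose libraries entered its filter, spread and embryo block, so that the comparisons are not independent.

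**Figure D5:**
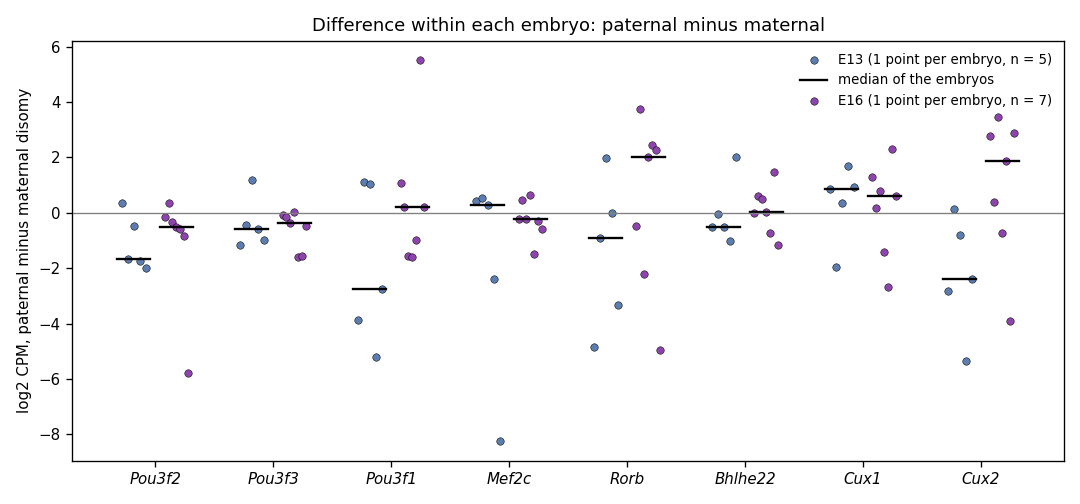
Within-embryo log2 difference of patUPD over matUPD cells for each regulator, at E13 (5 embryos) and E16 (7 embryos); each point is 1 embryo, black lines mark medians and the grey line marks 0. Most Pou3f2 and Pou3f3 points lie below 0, in 4 of 5 and 6 of 7 embryos.

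Over the 36 libraries, the genes most like each regulator were taken by the correlation of log2 CPM across 11472 genes, as a description that shares age, colour and depth among its points. Mef2c was most like Dync1i1 (r = 0.92) and Rabgap1l (0.84), Pou3f2 most like Enc1 (0.83) and Dbpht2 (0.75), and Bhlhe22 most like Gria2 (0.83) and Mpped1 (0.76). Pou3f3 was most like Ttc28 (0.73) and Neurod2 (0.71), Pou3f1 most like Erlin2 (0.78) and Srgap2 (0.75), and Rorb most like Gm47592 (0.79) and Npy1r (0.77). For Cux1 the highest values were Gspt1 (0.66) and Ehmt2 (0.65), and for Cux2 Arih2 (0.64) and Wrap73 (0.64). Among the regulators themselves Pou3f2 correlated with Rorb at 0.73 and with Pou3f3 at 0.70, which were 0.50 and 0.37 after the group means were removed. Cux1 and Cux2 correlated at -0.07, and Cux1 and Mef2c at -0.38.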

How the data were processed

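RNA was sequenced from pools of 200 to 400 sorted cells by Smart-Seq2 without molecular identifiers or strand. The authors aligned reads with STAR 2.5.0c to GRCm38 (Gencode M16), kept single alignments, combined technical replicates, used SAMtools 1.8 and bedtools 2.26.0, and deposited whole-number counts per gene, not normalised. The unstranded column was used, since each stranded column came to only 54.6% or 53.0% of it (medians over libraries). Symbols and exon lengths are from Gencode M21 (53274 of 53379 genes matched). Exon length counts every annotated exon once.

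Libraries under 40% uniquely aligned reads (E13 yellow 3, red 5 and green 5, 18.8% to 36.1%) were left out, and the other 36 had 50.5% to 66.0%. Genes with a mean count of at least 10 entered the quasi-likelihood test of edgeR 4.0.16 with TMM scaling (R 4.3.3), adjusted over all genes tested (Benjamini-Hochberg, 0.05). DESeq2 1.42.0 was an alternative, with other normalisation, filters, libraries, blocks and the removal of each library or embryo. Fits were tested on simulated data. Levels are CPM, and log2 CPM uses a prior count of 2. The floor of 3 counts covers counting error only.

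Ages were compared with no block, as each embryo has only 1 age. Colours and disomy directions were compared with the embryo as a block: the labels' treatment protocol gives single individuals as replicates, and same-numbered libraries of an age were taken as 1 embryo, which the labels do not state. Their deviations from the group means correlated at a mean of 0.0456 at E13 (13 pairs) and 0.0296 at E16 (21 pairs), against -0.0095 and -0.0034 for different numbers, and the lowest pair was at -0.0448. The disomy direction follows the study's list of samples, not the labels.

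The members and gene lists were chosen with earlier results of these data known. The text names the 8 regulators, at most 2 genes per list and direction with the smallest p past the threshold, and the 2 genes most like each regulator. Libraries the study left out for other reasons were kept here. Comparisons in the study's own tables were not used. Some genes of the lists are not reported here.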

Additional observations from a re-analysis of the deposited data

Results flagged for a closer look

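In 10 of the 48 groups of 5 or 7 libraries of 1 regulator, age and colour, the highest library lay beyond Dixon's 95% limit. For normally distributed values about 1 in 20 groups would pass that limit. It was applied to CPM and not to log2 CPM, so 1 in 20 is not the rate to expect here. The 10 values came from 8 libraries. Cux1 was at 881 CPM in E16 red 5 (others 24.1 to 206). Cux2 was at 200.4 CPM in E13 red 6 (0.273 to 24.4), 212 CPM in E16 red 6 (6.85 to 62.5) and 126 CPM in E16 green 7 (1.25 to 45.3). Pou3f3 was at 780.1 CPM in E16 red 6 (111 to 321) and 447 CPM in E16 yellow 7 (80.1 to 236). Rorb was at 16.9 CPM in E13 green 1 (0 to 0.528) and 50.01 CPM in E16 red 2 (2.02 to 18.5). Mef2c was at 779 CPM in E16 green 3 (151 to 410.1), and Bhlhe22 at 257 CPM in E16 yellow 7 (85.6 to 139).

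In the E13 libraries left out for few uniquely aligned reads, 5 of 24 values were above every library of E13 that was kept, with CPM scaled over all 39 libraries. E13 yellow 3 held 247 CPM of Cux2 (highest kept 197), 116 CPM of Pou3f2 (112) and 131 CPM of Bhlhe22 (104). E13 red 5 held 50.6 CPM of Pou3f1 (33.0) and 451 CPM of Pou3f2 (112).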

How the results depend on the processing

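The counts of called regulators stayed within 1.5 times in 132 of 150 alternatives and moved in 18. Outside red cells and the embryo sums the main count was 0, so most of the 132 set 0 against 0. In the sums a fall from 3 to 2, which loses a regulator, is within 1.5 times. The 132 are therefore no measure of how stable the calls are. The genes called among all those tested are given in brackets after the counts. In red cells (1 called) the count was 2 with DESeq2 (307 of 11174 genes), 0 with all 39 libraries (5 of 11148) and 0 in replicates 4 and up. It was 0 to 1 leaving out 1 library (5 to 78 genes): without E13 red 2, Pou3f2 was 3.09 (adjusted p = 0.0570, edgeR). In green cells (0) it was 1 with the replicate block (59 of 11186 genes) and 2 with DESeq2 (692 of 11186). It was 1 without libraries with both sex signals (203 of 11137) and 2 in one fit of all 6 groups (113 of 11472). It was 1 in replicates 1 to 3 (53 of 11024), 1 in replicates 4 and up (13 of 10965), and 0 to 1 leaving out 1 (71 to 203 genes). The call in replicates 4 and up was Mef2c at 12.8, where E13 green 4 and 6 held 0 counts. In yellow cells (0) it was 1 without the count filter (55 of 21872 genes) and 3 with DESeq2 (194 of 11378). With the libraries the study kept it was 2, Pou3f2 and Mef2c (146 of 11204 genes). In the embryo sums (3) it was 5 with DESeq2 (1077 of 13998 genes), 5 with all embryos (524 of 13776), and 1 to 3 leaving out 1 embryo (150 to 527 genes). For singly coloured over yellow cells at E13 (0) it was 1 with DESeq2 (562 of 11786 genes). The replicate block across ages pairs different animals. The cause of these moves was not tested.

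Of 818 alternatives of single log2 differences, 759 kept direction and side of the threshold, 23 gained the call, 15 lost it and 21 reversed. The reversed values were: Cux1 in red cells -0.26 (libraries the study kept) and -0.36 (replicate block), Cux2 in red cells -0.52 (libraries the study kept) and -0.57 (replicates 4 and up), Cux2 in green cells -0.48 and in yellow cells 0.68 (replicate block), Pou3f1 in yellow cells -0.29 (replicates 4 and up), Cux1 in the sums 0.014 (all embryos), and Mef2c over yellow at E16 0.076 (replicates 4 and up). Leaving out 1 library gave -0.46 to 0.75 for Cux1 and -0.73 to 1.98 for Cux2 in red cells, -0.56 to 0.33 for Cux2 in yellow cells, and -0.51 to 0.024 for Cux1 in the sums. Pou3f2 in the sums kept its call in 16 of 16 alternatives (2.81 to 3.40). Rorb was called in the sums without E13 embryo 1 (4.14, adjusted p = 0.0421), without E16 embryo 7 (3.36, adjusted p = 0.0437) and with all embryos (adjusted p = 0.0164, edgeR), and with DESeq2 (3.32, adjusted p = 0.00021). Cux1 over yellow at E13 was 2.24 with no replicate block (adjusted p = 0.0778) and 0.83 with all 39 libraries (adjusted p = 0.994, edgeR). The genes called by DESeq2 were 307, 692 and 194 in red, green and yellow cells and 1077 in the sums, against 36, 155, 17 and 370. With the libraries the study kept, 189 were called in red and 146 in yellow cells. Counts at the floor limit Rorb, Pou3f1 and Cux2 most.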
